A study of Mus musculus with 12 samples.

Results

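The genes that carry fatty acids into heart muscle cells and burn them were followed across total and ribosome-bound RNA of adult mouse hearts, in wild-type (WT) animals and in animals lacking Rpl3l (Rpl3l-/-, here KO). Rpl3l encodes a ribosomal protein made in striated muscle, a close relative of Rpl3. The members were 37 genes, named from textbook knowledge of the pathway, but with earlier results of these data known. They were matched by Ensembl identifier to the 55401 gene rows of the count tables. They cover uptake (4 genes), lipid droplets (2), activation and the carnitine shuttle (6), acyl-CoA dehydrogenases and electron transfer (7), hydration to thiolysis (5), auxiliary enzymes (4), peroxisome-related enzymes (3), thioesterases (2) and regulators (4). All 37 had counts, and 36 passed the filter on low counts that left 6596 genes for testing. Eci2 did not pass.

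Each of the 4 groups held 3 libraries: WT Input, KO Input, WT IP and KO IP. Input is RNA extracted with TRIzol from heart homogenate, and IP is RNA of ribosomes pulled down with an anti-HA antibody after the excised hearts had been exposed to cycloheximide, a drug that holds ribosomes on their messages. IP RNA was purified on columns, so fraction, drug treatment and RNA purification change together and cannot be told apart. Both kinds of RNA were selected for poly(A) tails and sequenced as nanopore direct cDNA, in which 1 read stands for 1 cDNA molecule. The design text speaks of biological triplicates. Strain, sex, age beyond adult, the cells that carry the HA tag, and whether an Input and an IP library came from the same heart are not stated in the labels.

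The adult heart draws most of its energy from fatty acids. Lipoprotein lipase frees them from circulating triglyceride, CD36 and FATP proteins bring them through the membrane, and FABP3 carries them in the cytosol. They are joined to coenzyme A, passed into mitochondria by the carnitine shuttle (CPT1, the carnitine-acylcarnitine translocase, CPT2) and shortened in repeated rounds of dehydrogenation, hydration, a further dehydrogenation and thiolysis. The electrons go to the respiratory chain through ETF and its dehydrogenase. PDK4 and malonyl-CoA (made by ACACB, removed by MLYCD) set the balance between glucose and fatty acid use.

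The libraries held 169359 to 710868 counts, and 3 counts in a library stood for 3.92 to 17.05 CPM (counts per 1000000, scaled by TMM factors). Rpl3l was at 222 to 308 CPM in the WT libraries, at 27.0 to 68.5 in KO Input and at 2.33 to 8.31 in KO IP, which matches the labels. Cardiomyocyte markers summed to 65485 to 76038 CPM in every library, although Actc1, the cardiac actin gene, was listed at 0 throughout, so a 0 in these tables need not mean that a gene was silent. Erythroid genes took 1.71% to 17.3% of the counts. The 5 hepatocyte markers summed to 935 CPM in WT Input replicate 1 and to at most 41.9 CPM in any KO library.

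Together the members took 2.58% to 3.33% of all counts. The shares were 2.96% ± 0.378 (SD, n = 3) in WT Input, 2.84% ± 0.0772 in KO Input, 2.80% ± 0.214 in WT IP and 2.99% ± 0.255 in KO IP, and the 4 ranges overlapped. Lpl and Fabp3 alone made up 33.3% to 40.4% of the members' counts. Levels of different genes were compared per length, as CPM per kb of the longest annotated transcript. On that scale Fabp3, the cytosolic fatty acid carrier of muscle, stood far above the rest in WT Input at 8827 ± 721 CPM per kb. Etfb, the beta subunit of the electron transfer flavoprotein (1455 ± 47.9), Ech1, a dienoyl-CoA isomerase (1419 ± 94.3), and Lpl (1240.1 ± 92.4) followed. Etfb and Ech1 differed by less than their SDs. Acot13, a small acyl-CoA thioesterase, came next at 1023 ± 111 CPM per kb. Etfa (858 ± 131) and the thiolase Acaa2 (852 ± 93.8) could not be ordered within their SDs. At the lower end stood Acacb (18.04 ± 3.33), Cpt1b (14.1 ± 5.75), the peroxisomal bifunctional enzyme Ehhadh (12.9 ± 4.36) and Cpt1a (8.13 ± 3.13). Division by length lowers long transcripts where reads are counted per molecule, as here. Without it Fabp3 (7265 ± 593 CPM) and Lpl (5103 ± 380.3 CPM) led, and Ech1 and Cd36 followed at 1797 ± 119 and 1728 ± 198 CPM. The value for Cpt1b is taken up again below, because its reads were shared with an overlapping gene.

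Knockout and wild-type hearts were first compared in total RNA. None of the 36 members passed an adjusted p of 0.05 (edgeR quasi-likelihood test, Benjamini-Hochberg over all 6596 genes), in a comparison where 0.152% of all genes were called higher and 0.0303% lower. DESeq2 and limma-voom also called 0 members, with 0.212% and 0.136% of all genes called. At an unadjusted p under 0.05 there were 7 members (19.4%), all lower in KO, beside 7.11% of all genes in either direction. The median log2 fold change of the members was -0.09, beside -0.01 over all genes. Of the 36, 25 lay below 0 and 30.6% above 0, beside 49.4% of all genes above 0. Without WT Input replicate 1, the library with the hepatocyte markers, 5 members had an unadjusted p under 0.05, all lower, the median was -0.12 and 26 lay below 0.

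The regulators held 3 of these 7. Pdk4, the kinase that restrains pyruvate oxidation and so spares glucose, had the smallest p. Its levels were 857, 1073 and 839.7 CPM in the 3 WT Input libraries and 194, 435 and 579.6 CPM in KO Input. Every KO library lay below every WT library, and KO replicate 1 lay lowest. The log2 fold change was -1.23 (SE 0.30, adjusted p 0.110). Over the alternative analyses it ran from -1.55 to -0.89 with adjusted p from 6.61e-09 to 0.608. Pdk4 was called in 2 of 18: no count filter, which gave the smallest adjusted p, and the replicate number as a block (-1.32, adjusted p 0.00756). Without the count filter 54 genes in all were called lower, beside 2 with it. No pairing by replicate number was seen, but the check could not show its absence. With KO replicate 1 left out of both fractions the value was -0.89 (adjusted p 0.0767), without KO Input replicate 1 alone -0.89 (adjusted p 0.402), and without WT Input replicate 1 -1.29 (adjusted p 0.257).

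Mlycd, which removes the CPT1 inhibitor malonyl-CoA, stood at 192, 232 and 252 CPM in WT Input and at 137, 143 and 153 CPM in KO Input. Its groups did not overlap (log2 fold change -0.64, SE 0.19, adjusted p 0.388). Ucp3, a mitochondrial carrier of muscle whose message follows fatty acid supply, was chosen for mention after its values were seen. It stood at 72.3, 136 and 63.8 CPM in WT Input and at 22.8, 53.9 and 79.6 CPM in KO Input, with overlap (-0.88, SE 0.41, adjusted p 0.676). KO replicate 1 was the lowest KO library for Ucp3 as it was for Pdk4, in Input and in IP alike. Acacb, the mitochondrial-surface enzyme that makes malonyl-CoA, was at 159 ± 29.2 CPM in WT Input and 162 ± 36.3 in KO Input.

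The promoter stretches of Pdk4 and Ucp3 are shown because these were the regulators that were lowest in KO replicate 1 in both fractions. In KO Input, Mlycd (137, 143 and 153 CPM) and Acacb (122, 169 and 193 CPM) were also lowest in replicate 1, but in KO IP they were not. Same-numbered Input and IP libraries are not known to share a heart. Nuclear receptors of the PPAR and ERR families bind repeats or extended forms of AGGTCA, and both genes are known targets of such receptors. Each line runs 5′ to 3′ on the gene's strand, from RefSeq (GRCm38.p6), and ends at the base before the GENCODE M21 gene start. Capitals mark AGGTCA on either strand.
Pdk4, chr6:5496310-5496528, minus strand: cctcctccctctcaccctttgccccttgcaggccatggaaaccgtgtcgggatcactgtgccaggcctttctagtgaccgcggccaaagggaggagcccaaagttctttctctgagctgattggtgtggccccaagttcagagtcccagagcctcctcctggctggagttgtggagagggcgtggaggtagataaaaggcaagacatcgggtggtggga
Ucp3, chr7:100472741-100472989, plus strand: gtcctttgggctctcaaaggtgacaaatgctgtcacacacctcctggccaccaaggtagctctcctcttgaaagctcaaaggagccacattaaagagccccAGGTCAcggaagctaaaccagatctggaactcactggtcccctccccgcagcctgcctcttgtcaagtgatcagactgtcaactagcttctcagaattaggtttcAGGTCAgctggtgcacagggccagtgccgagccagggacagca
The Ucp3 stretch holds 2 copies of AGGTCA and the Pdk4 stretch 0. RefSeq promoter windows of 300 bases were found for 31 of the 37 members, 35 windows in all. AGGTCA occurred in 9 of them (25.7%), in 8 genes (Acacb, Acadm, Acadvl, Cd36, Cpt1a, Echs1, Plin5 and Ucp3), and in 16.3% of all 32851 windows. The direct repeat AGGTCANAGGTCA and the extended form TCAAGGTCA, both of which contain AGGTCA, were in 0 member windows, and in 0.0396% and 0.423% of all windows. A match is a string of letters, not a bound site.

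The other 4 members with an unadjusted p under 0.05 belonged to the oxidation spiral and the shuttle. Hadhb, the thiolase subunit of the mitochondrial trifunctional protein, stood at 1177, 1211 and 1098 CPM in WT Input and at 857, 994 and 688 CPM in KO Input, without overlap (log2 fold change -0.45, SE 0.16, adjusted p 0.526). Hadh, the dehydrogenase for short and medium chains, was at 907, 1109.7 and 1008 CPM in WT Input and 861, 836 and 642 CPM in KO Input (-0.36, SE 0.16, adjusted p 0.669). Eci1, the isomerase that moves double bonds of unsaturated chains, was at 566, 569.7 and 541 CPM in WT Input and 468, 455 and 375 CPM in KO Input (-0.36, SE 0.16, adjusted p 0.669). For these 3 genes KO replicate 3 was the lowest library, the one with the fewest counts of all. Slc25a20, the carnitine-acylcarnitine translocase, overlapped between the groups at 213 ± 18.3 and 157 ± 56.3 CPM (-0.49, SE 0.21, adjusted p 0.665). Without WT Input replicate 1 the values were -0.45 for Hadhb, -0.44 for Hadh, -0.36 for Eci1, -0.46 for Slc25a20, -0.76 for Mlycd and -1.05 for Ucp3, with adjusted p from 0.452 to 0.826, and Eci1 and Slc25a20 no longer had an unadjusted p under 0.05.

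By role, all 5 genes of hydration to thiolysis lay below 0 (median -0.20, none past the threshold). Of the 4 uptake genes 2 lay above and 2 below 0 (median 0.01), with Fabp3 at 7166, 7901 and 6728 CPM in WT Input and 7129, 8054 and 3961 CPM in KO Input. The 7 dehydrogenases and electron carriers had a median of -0.01. Acaa1a, the peroxisomal thiolase, had the highest value of the 36 at 0.39 (SE 0.24, adjusted p 0.774), and 43.8% of its 31-base words also occur in Acaa1b, so reads of the pair may have been exchanged.

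**Figure D1:**
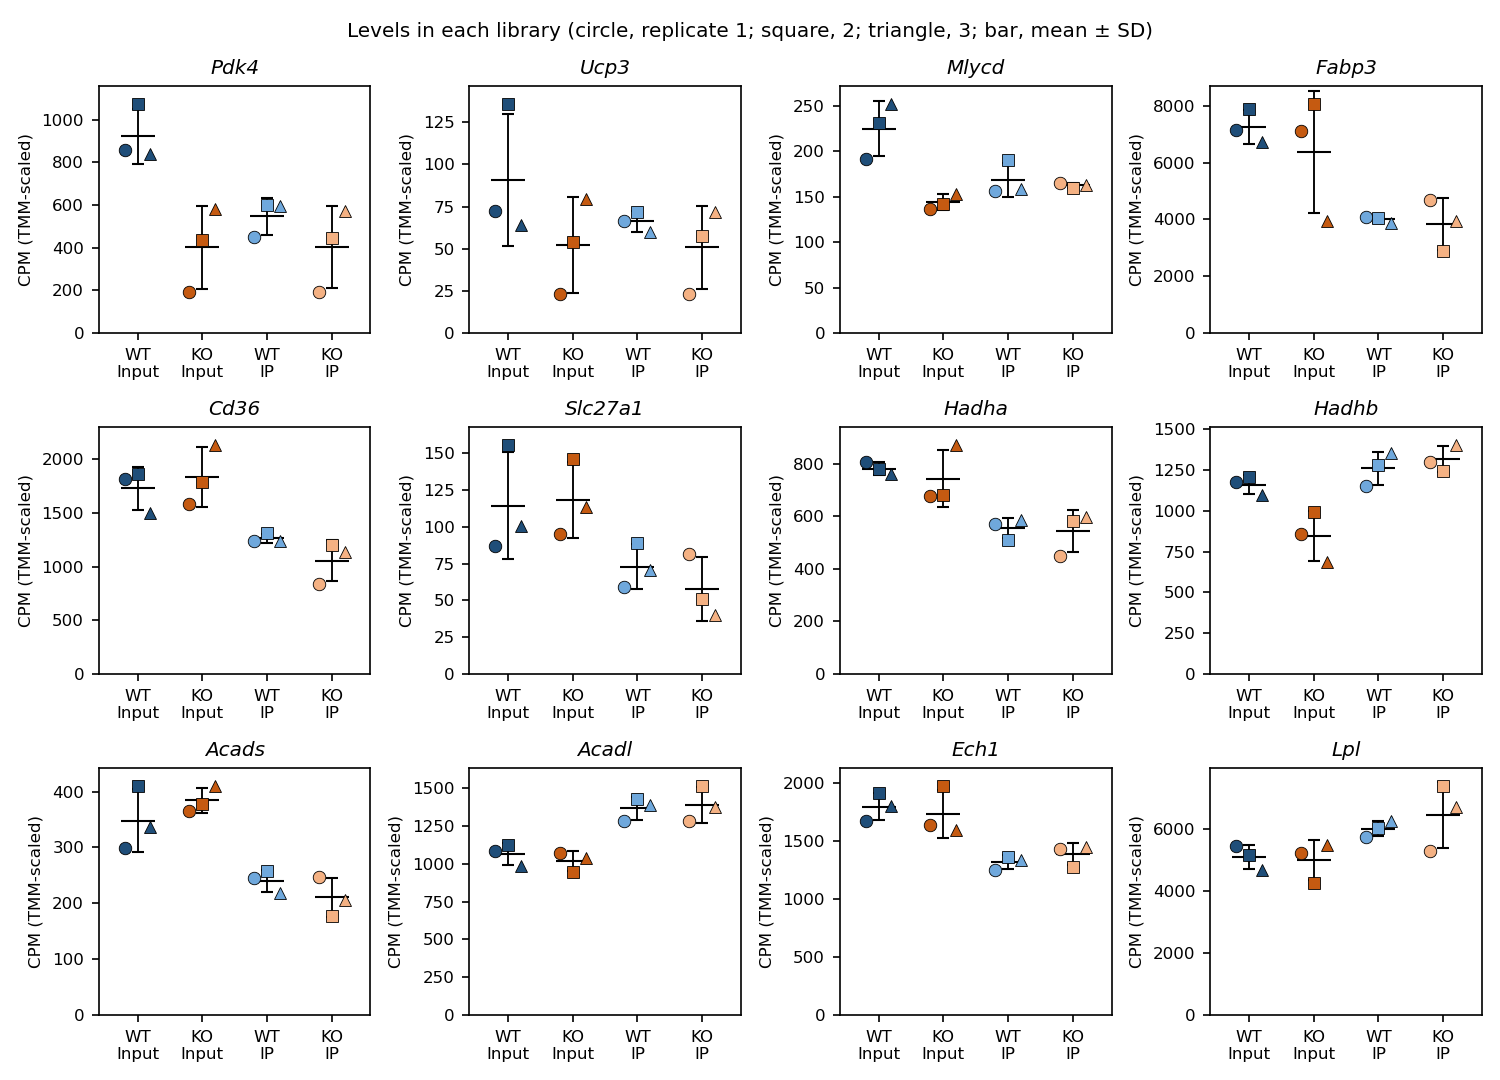
CPM of 12 members in each library (y axis, linear from 0) by group (x axis); symbols mark the replicate number and bars the mean ± SD of 3 libraries. Pdk4 and Mlycd lie lower in each KO Input library than in each WT Input library, while Fabp3, Cd36, Slc27a1, Hadha and Acads have lower means in both IP groups than in the Input groups.

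Knockout and wild-type hearts were then compared in ribosome-bound RNA. None of the 36 members passed (0.0303% of all genes were called higher and 0.0606% lower), by DESeq2 and limma-voom also 0 (0.152% and 0.106% of all genes), and 0 members had an unadjusted p under 0.05, beside 5.2% of all genes. The median log2 fold change was -0.04, with 15 members above and 21 below 0 (41.7% above, beside 50% of all genes). Scaled by library totals the median of the members was 0.07, and that of all genes 0.12. Acacb had the smallest p, at 138, 175 and 127 CPM in WT IP and 198, 175 and 199 CPM in KO IP (0.38, SE 0.19, adjusted p 0.943). Eci1 was at 431, 493 and 459.6 CPM in WT IP and 336, 339 and 445 CPM in KO IP (-0.30, SE 0.15, adjusted p 0.946). Cd36, the membrane fatty acid translocase, was at 1238, 1314 and 1239.6 CPM in WT IP and 840.1, 1198 and 1134 CPM in KO IP (-0.25, SE 0.16, adjusted p 0.968), without overlap. Pdk4 stood at 449, 599.6 and 595 CPM in WT IP and 194, 447 and 572 CPM in KO IP, where 2 of 3 KO libraries lay below the WT range (-0.42, SE 0.28, adjusted p 0.968). Mlycd was close in both genotypes at 169 ± 18.8 and 163 ± 3.05 CPM, and so was Hadhb at 1261 ± 103 and 1316 ± 79.4 CPM.

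**Figure D2:**
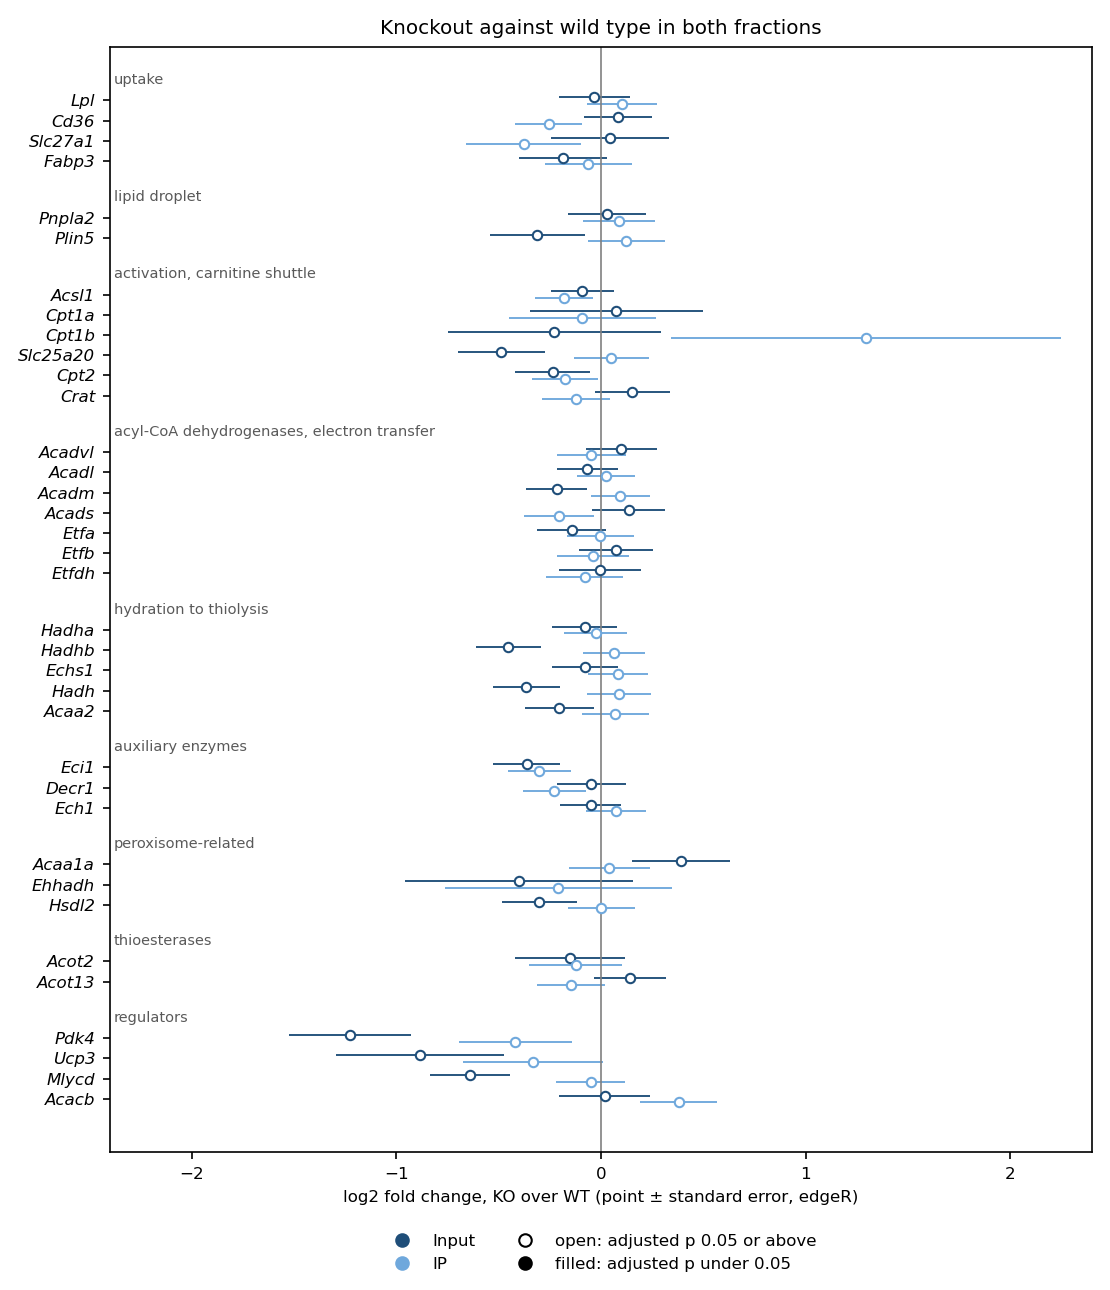
Log2 fold change of KO over WT (x axis, point ± standard error, edgeR, 3 libraries a group) for the 36 tested members grouped by role, in Input (dark) and IP (light). No point is filled, since none passed an adjusted p of 0.05; Pdk4 in Input lies lowest at -1.23, and Cpt1b in IP at 1.30 rests on 3 counts in WT and 8 in KO.

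Whether the genotype difference was the same in both fractions was tested as an interaction, positive where IP stood higher relative to Input in KO than in WT. None of the 36 members passed (0.0303% of all genes were called higher and 0.0606% lower; DESeq2 and limma-voom called 0 members and 0.0758% and 0.0152% of all genes). At an unadjusted p under 0.05 there were 2 members (5.56%), beside 7.02% of all genes. Hadhb had the smallest p at 0.51 (SE 0.22, adjusted p 0.668), Mlycd followed at 0.59 (SE 0.26, adjusted p 0.668) and Hadh was at 0.45 (SE 0.23, adjusted p 0.722). Without WT Input replicate 1 the values were 0.51 for Hadhb, 0.70 for Mlycd and 0.53 for Hadh, with adjusted p from 0.719 to 0.805. The genotype differences of the members were thus not shown to differ between Input and IP.

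Ribosome-bound RNA was next compared with total RNA within each genotype. In WT 5 of 36 members were lower in IP and 0 higher at an adjusted p under 0.05, where 8.67% of all genes were called lower and 5.37% higher. These 5 (13.9%) were Cpt1b, Fabp3, Hadha, Acads and Ech1, and without WT Input replicate 1 there were 3: Cpt1b (-4.44, adjusted p 0.000931), Fabp3 (-0.88, adjusted p 0.0294) and Acads (-0.64, adjusted p 0.0370). At an unadjusted p under 0.05, 2 members were higher and 10 lower, beside 12.5% and 15.4% of all genes. In KO 5 members were lower (Cd36, Slc27a1, Fabp3, Cpt1b and Acads) and 2 higher (Acadl and Hadhb), where 9.78% of all genes were called lower and 6.64% higher. The medians of the members were -0.11 in WT and 0.04 in KO, beside 0.02 and 0.01 over all genes. Across the 36 members the log2 ratios of the 2 genotypes had a Pearson r of 0.88 and a Spearman rho of 0.63. Over the 35 without Cpt1b these were 0.71 and 0.60. The ratios had the same sign in both genotypes for 22 of the 36 members, a share not computed over all genes. These values are across genes, which are not independent replicates.

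Among the uptake genes Fabp3 was lower in IP in both genotypes. It stood at 7166, 7901 and 6728 CPM in WT Input and at 4094, 4047 and 3859.6 CPM in WT IP, with no overlap (log2 fold change -0.86, SE 0.22, adjusted p 0.00779). In KO it went from 7129, 8054 and 3961 CPM to 4679, 2873 and 3961 CPM (-0.74, SE 0.22, adjusted p 0.0196). Input replicate 3 lay among the IP libraries here, and the call was lost when any of 4 other KO libraries was left out and in the fit of the compared libraries alone.

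Cd36 fell in KO from 1584, 1791 and 2131 CPM in Input to 840.1, 1198 and 1134 CPM in IP (-0.79, SE 0.17, adjusted p 0.00162), a call that all 18 alternatives with a p kept. In WT its Input libraries (1817, 1867 and 1501 CPM) also all lay above its IP libraries (1238, 1314 and 1239.6 CPM), at -0.45 (SE 0.16, adjusted p 0.0654). Slc27a1, the fatty acid transport protein FATP1, fell in KO from 95.2, 146 and 114 CPM to 81.7, 51.0 and 39.9 CPM (-1.08, SE 0.30, adjusted p 0.0138). Its call was lost without KO IP replicate 2 or 3, without KO Input replicate 2, and at equal depth. Lpl had higher means in IP than in Input in both genotypes without passing, at 5103 ± 380.3 and 6022 ± 251 CPM in WT (0.24, SE 0.17, adjusted p 0.389) and at 4996 ± 645 and 6473 ± 1062 CPM in KO (0.37, SE 0.17, adjusted p 0.148). The WT groups did not overlap and the KO groups did.

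Markers of some other cell types also differed between the fractions. Of the macrophage markers (7 tested) and the smooth muscle and pericyte markers (6 tested), 0 were called in either genotype. Of the 8 fibroblast markers 0 were called in WT and 2 were lower in IP in KO. The median log2 fold changes of the fibroblast markers were 0.18 in WT and 0.23 in KO. The 10 endothelial markers, all tested and none at 0, summed to 2505 to 3302 CPM in WT Input and 1759 to 2309 CPM in WT IP, and to 3035 to 3864 CPM in KO Input and 1754 to 1857 CPM in KO IP. In WT 3 were lower and 1 higher in IP, and in KO 5 were lower and 0 higher. Fabp4 held much of these sums, with means of 1864 CPM in WT Input, 1287 in WT IP, 2272 in KO Input and 1085 in KO IP. Cdh5 had lower means in IP, from 159 to 117 CPM in WT and from 179 to 105 CPM in KO. Pecam1 had higher means in IP, from 75.3 to 99.1 CPM in WT and from 94.1 to 119 CPM in KO. The 10 adipocyte markers, of which 2 were tested and Lipe was at 0 in every library, summed to 234 to 695 CPM in WT Input, 178 to 192 CPM in WT IP, 295 to 533 CPM in KO Input and 175 to 243 CPM in KO IP. Of the 2 tested, 1 was called lower in IP in each genotype. Plin4 held much of the IP sums, with means of 125 CPM in WT Input, 157 in WT IP, 121 in KO Input and 171 in KO IP. On few counts, Adipoq had means of 61.8, 2.84, 14.6 and 1.98 CPM in the same order, and Plin1 of 23.4, 0.493, 5.09 and 1.54 CPM. The 6 brown fat markers, of which 4 were tested and Elovl3 was at 0 in every library, summed to 6081 to 7254 CPM in WT Input, 4597 to 4992 CPM in WT IP, 5648 to 8099.9 CPM in KO Input and 3310 to 4158 CPM in KO IP, with 2 called lower in IP in WT and 3 in KO. That list holds Cox7a1 and Cox8b, which heart muscle also makes, while Ucp1, the marker particular to brown fat, was at 4.93 to 151 CPM in Input and at 0 to 3.43 CPM in IP. Cd36 is also made in endothelial cells and fat, and Lpl in fat. In bulk samples fewer cells of a type and less RNA per cell cannot be told apart, and the part of these cells in the members' ratios was not tested.

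In the oxidation spiral the subunits of one enzyme had different ratios. Hadha and Hadhb encode the 2 subunits of the mitochondrial trifunctional protein, which carries out the last 3 steps on long chains. Hadha was lower in IP in WT, from 805, 779 and 759 CPM to 569.9, 511 and 585 CPM (-0.49, SE 0.15, adjusted p 0.0319). In KO it went from 678, 682 and 869 CPM to 450.4, 581 and 598 CPM, again without overlap, but did not pass (-0.44, SE 0.16, adjusted p 0.0579). Hadhb was higher in IP in KO, from 857, 994 and 688 CPM to 1299.8, 1247 and 1403 CPM (0.63, SE 0.16, adjusted p 0.00637), a call that all 18 alternatives with a p kept. In WT it overlapped, from 1177, 1211 and 1098 CPM to 1150.2, 1279.8 and 1354 CPM (0.12, SE 0.15, adjusted p 0.661).

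Counted within each library, there were 1.49 ± 0.0580 Hadhb counts per Hadha count in WT Input, 1.17 ± 0.343 in KO Input, 2.28 ± 0.246 in WT IP and 2.46 ± 0.383 in KO IP (SD, n = 3). All 6 IP libraries (2.02 to 2.89) lay above all 6 Input libraries (0.791 to 1.55), and KO Input replicate 3 was lowest. This ratio needs no scaling between libraries. It was described after the values were seen, and its longest transcripts differ in length (4017 bases for Hadha and 2048 for Hadhb).

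The genes lie head to head on chromosome 5 (GRCm38), Hadha at chr5:30118304-30155162 on the minus strand and Hadhb at chr5:30155248-30184593 on the plus strand. The 85 bases between their annotated starts are shown because messages that start on either side of so short a stretch gave different ratios. They run 5′ to 3′ on the plus strand, from RefSeq (GRCm38.p6), with 69.4% G or C and no AGGTCA to mark in capitals.
Between Hadha and Hadhb, chr5:30155163-30155247: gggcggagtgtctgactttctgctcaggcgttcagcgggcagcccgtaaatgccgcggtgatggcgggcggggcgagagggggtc

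Of the 4 chain-length dehydrogenases, Acads, for short chains, was lower in IP in both genotypes. It went from 299, 409 and 336 CPM to 246, 257 and 218 CPM in WT (-0.53, SE 0.17, adjusted p 0.0364). In KO it went from 366, 377 and 409 CPM to 247, 178 and 206 CPM (-0.88, SE 0.18, adjusted p 0.00122), a call that all 18 alternatives with a p kept. Acadl, for long chains, was higher in IP in KO, from 1070.1, 944 and 1039.9 CPM to 1281, 1514 and 1376 CPM (0.45, SE 0.15, adjusted p 0.0364). Its WT libraries did not overlap either, at 1065 ± 70.4 CPM in Input and 1368 ± 73.9 CPM in IP, but did not pass (0.36, SE 0.14, adjusted p 0.0998). Acadm and Acadvl, for medium and very long chains, were not called in either genotype, and neither were Etfa, Etfb and Etfdh. Ech1 went in WT from 1675, 1914 and 1804 CPM to 1249, 1365 and 1338 CPM (-0.45, SE 0.15, adjusted p 0.0427).

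These WT calls were close to the threshold. Hadha lost its call without any one of the 6 WT libraries, Ech1 likewise, and Acads without any one but Input replicate 1. All 3 also lost it with library totals, with no count filter and after thinning to the smallest library, Acads and Ech1 with the replicate block, and Acads with the DESeq2 test. The KO call of Acadl was lost without KO IP replicate 2 or 3 or KO Input replicate 1 or 2, with only the compared libraries, and with the replicate block.

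Among the members most abundant in their role, Acsl1, Pnpla2, Acaa2, Acot13, Etfb and Hsdl2 were not called in either genotype. Acsl1, which joins long fatty acids to coenzyme A, had higher means in IP, from 627 ± 31.8 to 821 ± 28.3 CPM in WT (0.39, SE 0.15, adjusted p 0.0773). Pnpla2, the triglyceride lipase of lipid droplets, was at 264 ± 16.3 and 216 ± 32.0 CPM in WT (-0.29, SE 0.18, adjusted p 0.306). Acaa2 (1292 ± 142 and 1259.6 ± 141 CPM), Acot13 (738 ± 79.8 and 839 ± 50.2 CPM), Etfb (1299 ± 42.8 and 1334 ± 208 CPM) and the peroxisomal dehydrogenase Hsdl2 (301 ± 47.3 and 262 ± 28.6 CPM) had WT means closer together than the sum of their SDs. The regulators lay below 0 in WT, all 4 of 4, and above 0 in KO, 4 of 4, none past the threshold. Over all genes 51.1% lay above 0 in WT and 50.4% in KO. Pdk4 was at -0.76 in WT (SE 0.27, adjusted p 0.0658) and 0.05 in KO (SE 0.30, adjusted p 0.935), and 5 of 18 alternatives called it in WT. The WT Input libraries that were high for Pdk4 in the genotype comparison are the same libraries that enter this ratio.

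**Figure D3:**
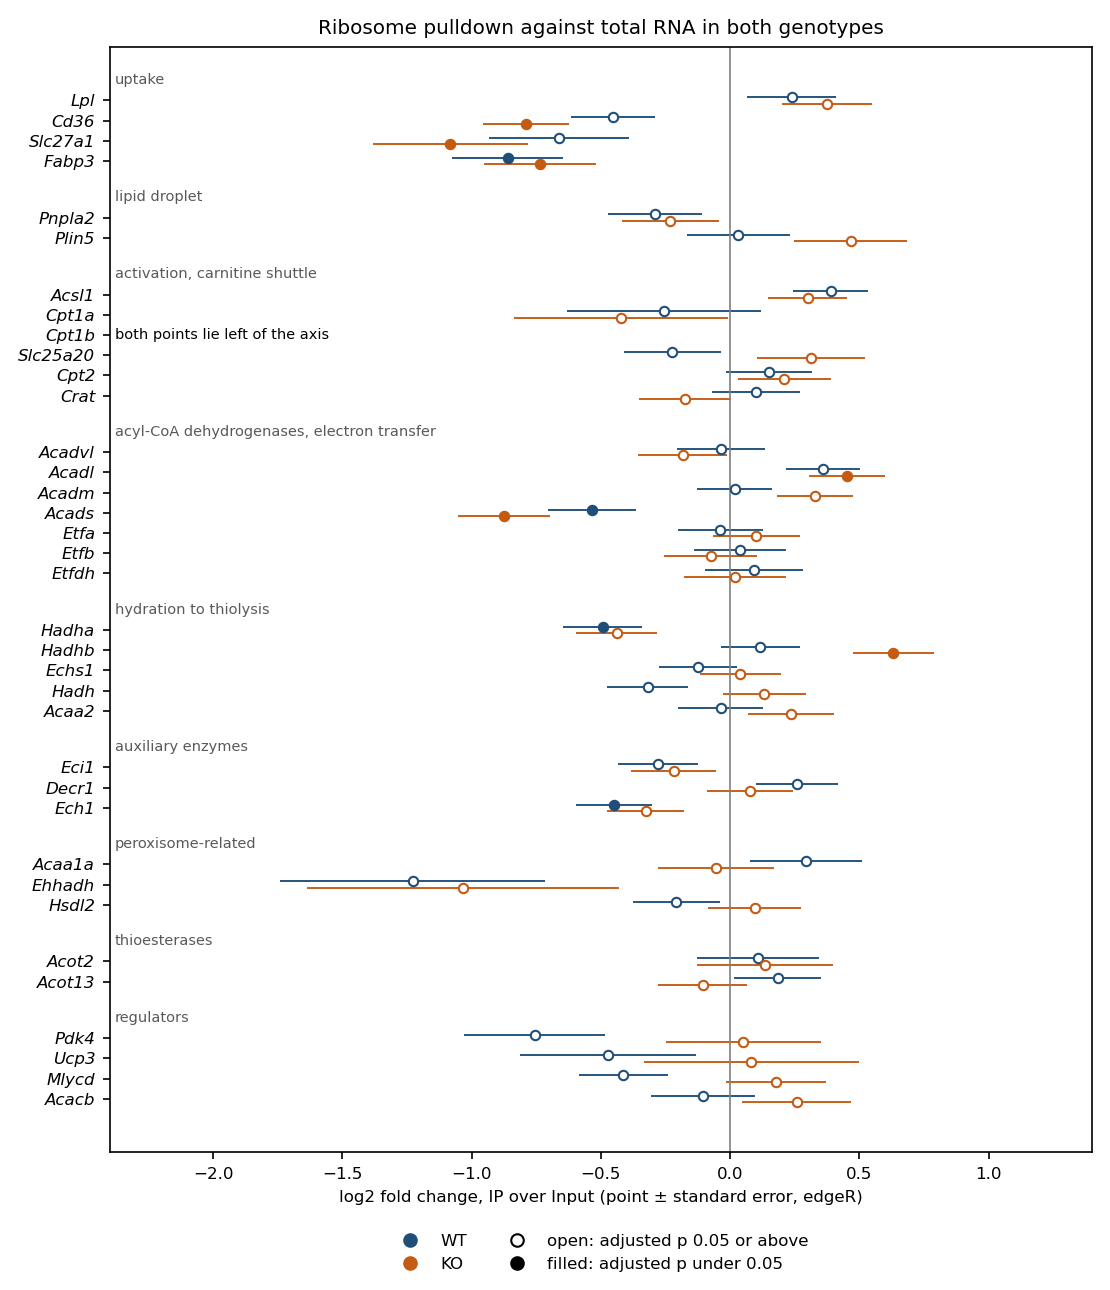
Log2 fold change of IP over Input (x axis, point ± standard error, edgeR, 3 libraries a group) for the tested members by role, in WT (blue) and KO (orange); filled points passed an adjusted p of 0.05. Fabp3 and Acads are filled in both genotypes, Hadhb lies above 0 at 0.63 in KO while Hadha lies below 0, and Cpt1b lies beyond the left edge at -4.45 and -2.93.

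Cpt1b, the muscle form of carnitine palmitoyltransferase 1 and the controlled step of mitochondrial entry, needs a separate account. It had 17, 23 and 7 counts in WT Input, 9, 11 and 5 in KO Input, 1, 1 and 1 in WT IP and 0, 2 and 6 in KO IP. All IP libraries lay low. The fitted log2 fold changes of IP over Input were -4.45 in WT (SE 0.71, adjusted p 8.86e-05) and -2.93 in KO (SE 0.66, adjusted p 0.00295), and with so few counts they depend on the fit's prior. From the pooled counts, scaled by library size, the ratio of IP to Input was 0.0386 in WT (3 and 47 counts, exact 95% interval 0.00768 to 0.120) and 0.124 in KO (8 and 25 counts, 0.0485 to 0.285). Replicate 3 held 6 of the 8 KO IP counts, and without it the KO ratio was 0.0468 (2 and 25 counts, 0.00537 to 0.188) and the fitted value -4.20 (adjusted p 0.00135). These intervals cover counting error only.

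The locus holds a second protein-coding gene on the same strand. Gm44502 (chr15:89416405-89429696, minus strand, GRCm38) runs from the neighbouring gene Chkb through all of Cpt1b (chr15:89416405-89425863), and RefSeq lists Chkb-Cpt1b as its synonym. It took 103 to 251 counts in each library. Of the 2895 bases of transcript Cpt1b-201, 2744 (94.8%) lie in exons of Gm44502-201: 17 of its 19 exons are shared whole. Exon 1 (66 bases) and exon 9 (85 bases) are not, and Gm44502-201 has 10 further exons upstream, with 1552 bases that Cpt1b-201 lacks. The sequences at the point where exon 9 is joined or skipped are shown because, from exon 2 of Cpt1b-201 on, exon 9 is what tells the transcripts apart. They run 5′ to 3′ on the minus strand, 30 bases each, from GENCODE M21, and capitals mark the start of the stretch identical in both. The first capital, G, is still the last base of exon 9 of Cpt1b-201 and of exon 17 of Gm44502-201. The shared exon that follows (exon 10 of Cpt1b-201 and exon 18 of Gm44502-201) starts at the base after it.
Cpt1b-201, end of exon 9 (chr15:89422125-89422209) and start of exon 10 (chr15:89421345-89421540): ccaggcaaagagacaGACTTGCTACAGCAC
Gm44502-201, end of exon 17 (chr15:89422289-89422396) and start of exon 18 (chr15:89421345-89421540): tgaagagatcaagccGACTTGCTACAGCAC

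Reads that lie within the shared exons and do not reach exon 9 or the upstream exons match both genes, and the labels do not say how the authors assigned them. Cpt1b held 8.51% of the pooled counts of the 2 genes in WT Input (exact 95% interval 6.32% to 11.2%), 5.73% in KO Input (3.74% to 8.35%), 0.439% in WT IP (0.0905% to 1.28%) and 1.35% in KO IP (0.583% to 2.64%). Summed over both genes the locus was at 481, 523 and 494 CPM in WT Input, 567, 689 and 614 in KO Input, 373, 380.3 and 369.8 in WT IP and 308, 319 and 362 in KO IP. Input lay above IP in both genotypes. In a fit with the counts summed, IP over Input was -0.42 in WT (SE 0.15, adjusted p 0.0597) and -0.92 in KO (SE 0.15, adjusted p 0.000124), so the WT call was lost and the KO call kept at a smaller size. Gm44502 by itself was at -0.30 in WT (SE 0.15, adjusted p 0.188) and -0.85 in KO (SE 0.15, adjusted p 0.00028). KO over WT was 0.32 for the sum in Input (SE 0.15, adjusted p 0.686) and -0.18 in IP (SE 0.15, adjusted p 0.985). Cpt1a, the liver form, was not affected by the overlap, shares no 31-base word with Cpt1b, and stood at 19.4 to 49.5 CPM in the 12 libraries.

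**Figure D4:**
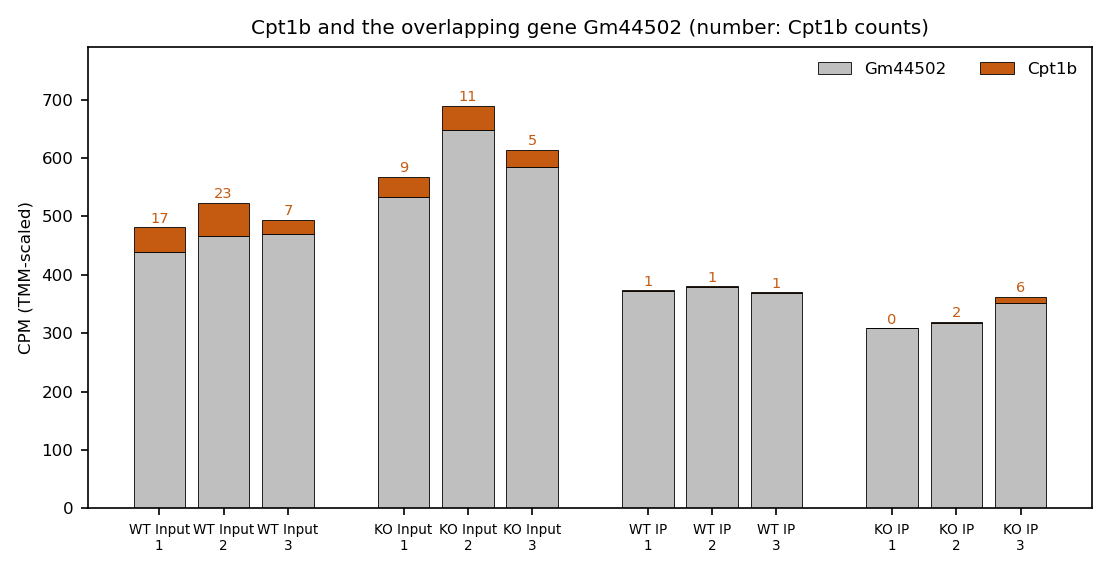
CPM (y axis, linear from 0) of Gm44502 (grey) and Cpt1b (orange), stacked for each of the 12 libraries, with the Cpt1b count above each bar. Nearly all reads of the locus carry the Gm44502 label, and the summed bars of the Input libraries (481 to 689 CPM) all stand above those of the IP libraries (308 to 380.3 CPM).

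Eci2, the second enoyl-CoA isomerase, had 4, 3 and 7 counts in WT IP, 0, 1 and 1 in KO IP and 1 count in all 6 Input libraries together, too few to test. Its neighbour Eci3 had 6 to 50 counts in each library and shares 12.0% of the 31-base words of Eci2, so reads of the pair may have been exchanged. Acot2 shares 29.8% with Acot1 in the same way.

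Long transcripts were favoured in IP over Input among all genes. The Spearman rho between transcript length and the log2 IP to Input ratio was 0.30 in WT and 0.34 in KO over 6594 genes, and -0.07 in both genotypes over the 36 members. Fabp3, of 823 bases, is among the shortest members. With a smooth trend on length subtracted, its ratio was -0.36 in WT and -0.18 in KO, and that of Ech1 in WT was -0.11. Acads (-0.38 in WT, -0.72 in KO), Cd36 in KO (-0.81), Slc27a1 in KO (-1.06), Hadha in WT (-0.56), Acadl in KO (0.60) and Hadhb in KO (0.75) moved less. The medians of the members became 0.03 and 0.13.

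**Figure D5:**
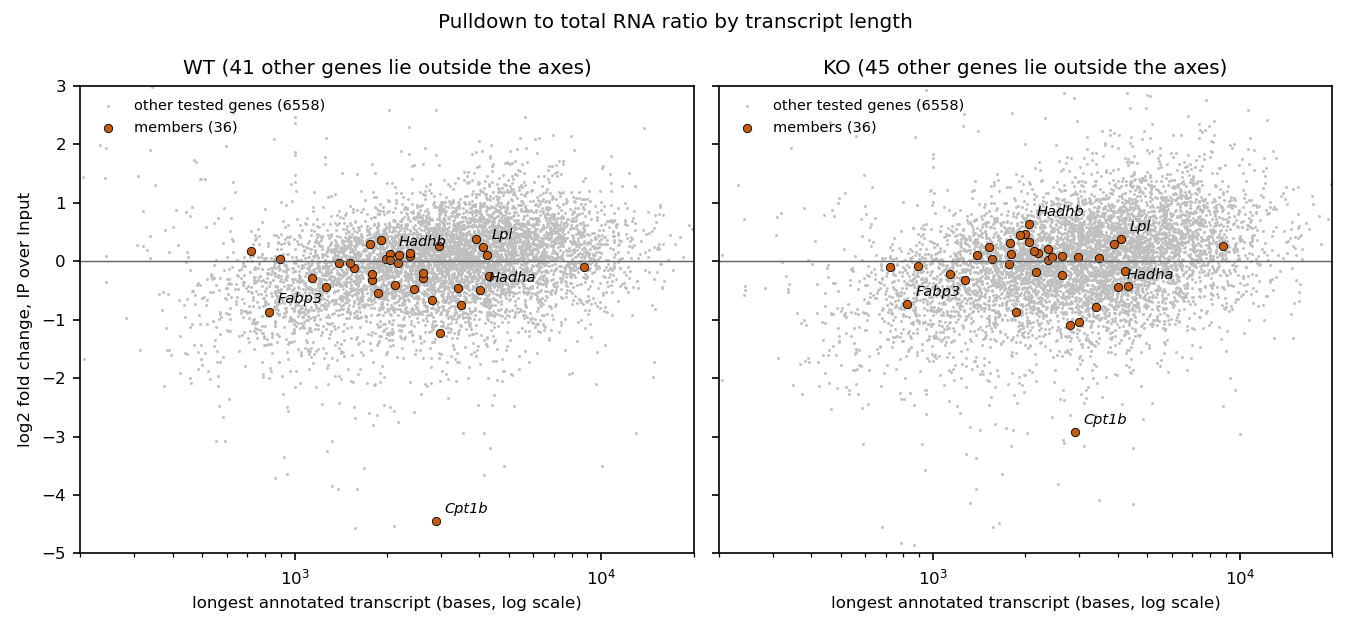
Log2 fold change of IP over Input (y axis) by length of the longest annotated transcript (x axis, log scale) in WT and KO, for the 36 members (orange) among 6558 other tested genes (grey), with 41 and 45 other genes outside the axes. The grey cloud rises with length (rho 0.30 and 0.34), and Fabp3 lies at its short end.

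Other genes of fatty acid metabolism were counted from a list of 101 matched genes, of which 75 were tested. Between the genotypes 0 were called in Input and 0 in IP, with 9 and 3 of 75 at an unadjusted p under 0.05, beside 7.11% and 5.2% of all genes. Between the fractions 5 were higher and 6 lower in IP in WT, and 9 higher and 6 lower in KO, beside the shares of all genes given above (5.37% and 8.67% in WT, 6.64% and 9.78% in KO). Dbi, the acyl-CoA binding protein, was lower in IP in both genotypes, at 563 ± 166 and 238 ± 60.3 CPM in WT (-1.24, SE 0.23, adjusted p 0.000459) and at 447 ± 103 and 245 ± 59.9 CPM in KO (-0.90, SE 0.24, adjusted p 0.0102). Fabp4, a fatty acid binding protein, and Gpihbp1, the lipoprotein lipase anchor of endothelial cells, were lower in IP in KO (-1.06, SE 0.19, adjusted p 0.000235, and -1.20, SE 0.23, adjusted p 0.000587). Both are also on the endothelial list above. Gpihbp1 was also lower in WT (-0.69, SE 0.21, adjusted p 0.0317). Dgat2, which makes triglyceride, was lower in KO (-0.75, SE 0.20, adjusted p 0.0102) and in WT (-0.59, SE 0.19, adjusted p 0.0349). Hsd17b10, a mitochondrial short-chain dehydrogenase, was lower in WT (-1.08, SE 0.22, adjusted p 0.00141) and in KO (-0.84, SE 0.24, adjusted p 0.0194).

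Oxct1, which lets the heart use ketone bodies, was higher in IP in both genotypes, with means of 1226 ± 57.1 (Input) against 1984 ± 60.0 CPM (IP) in WT (0.69, SE 0.15, adjusted p 0.00191). In KO they were 1358 ± 176 against 2037 ± 80.7 CPM (0.59, SE 0.15, adjusted p 0.00699). Pdk1, a sister kinase of Pdk4, was also higher in both, at 0.79 in WT (SE 0.21, adjusted p 0.0130) and 1.06 in KO (SE 0.24, adjusted p 0.00262). Got2, Acss1, Acad11 and Bdh1 were each called higher in 1 genotype, with 0 of the 75 called in the test of the genotype difference: the aspartate aminotransferase Got2 (0.85) and the acetyl-CoA synthetase Acss1 (0.83) in KO, Acad11 (0.94) and the ketone body dehydrogenase Bdh1 (1.10) in WT. Acot1 was lower in IP in WT (-1.34, SE 0.31, adjusted p 0.00459), and Nudt7, a peroxisomal coenzyme A hydrolase, likewise (-0.87, SE 0.24, adjusted p 0.0149).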

How the data were processed

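The 12 deposited files hold 1 whole-number read count per gene and library, per the file headers; the submitters' processing notes name minimap2 2.14, DESeq2 1.34.0 and the build GRCm38, without role or order, and the counting rule and annotation are not given in the sources used here. Gene IDs were matched without version to GENCODE M21 (55141 of 55401), which gave names, coordinates and lengths; promoter windows came from RefSeq (GRCm38.p6). Counts were tested in R 4.3.3 with edgeR 4.0.16: filterByExpr (minimum count 10, minimum total 15), TMM factors, a quasi-likelihood fit with 1 mean per group over all 12 libraries, and Benjamini-Hochberg adjustment over 6596 genes with a threshold of 0.05. The SE is the log2 fold change over the square root of F. CPM are TMM-scaled over the tested genes' counts. The p-values measure the spread between these libraries only. The tests were tried on simulated counts. Paralogs were compared by shared 31-base words of transcripts, in place of a planned comparison of proteins.

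No pairing by replicate number was seen: correlations of same-numbered libraries' deviations ran from -0.09 to 0.02, and the own number matched best in 1 of 18 cases. Most of these cases cross genotypes, where no heart can be shared. Between IP and Input of the same genotype the correlations ran from -0.03 to -0.01. Counting error also enters these deviations, so the check cannot show that no libraries were paired. Alternatives were other scalings (DESeq2 1.42.0 size factors, library totals), no filter or a stricter one (30 counts in 3 libraries), tests by DESeq2 and by limma-voom (limma 3.58.1), only the compared libraries, a replicate block, thinning to 169359 counts, erythroid genes left out, the length trend removed (loess, span 0.5), and each library left out. Added after the data were seen were the summed Cpt1b and Gm44502 counts, KO replicate 1 left out of both fractions, and the pooled Cpt1b ratio without KO IP replicate 3.

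The members and lists were chosen with earlier results of these data known. Values in every library are given for members called in a contrast (up to 6 per direction), the 3 with the smallest p in each, and, as means with SD where nothing else named them, the most abundant member of each role; other pathway genes are named when called, up to 4 per contrast and direction.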

Additional observations from a re-analysis of the deposited data

How the results depend on the processing

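Of the values of named genes under the alternatives, 1909 kept their direction and side of the threshold or moved within the spread, 45 lost a call, 16 gained one, 18 moved further and 0 called values changed sign. Members called lower in KO Input were 0, and 1 (Pdk4) with no count filter and with the replicate block. Members called lower in WT IP against Input were 5, and 2 with library totals, 3 with no count filter and 1 after thinning to the smallest library. They were 7 with the stricter filter, with only the compared libraries and with KO replicate 1 left out of both fractions, and 6 with limma-voom. Leaving out 1 of the compared libraries gave 2 to 3. Members called higher there were 0, and 1 with the DESeq2 test and 2 with only the compared libraries. In KO, members called higher were 2, and 3 with limma-voom, 1 with only the compared libraries and with the replicate block, and 1 to 2 with a library left out. Members called lower in KO were 5, and 3 after thinning, and 3 to 5 with a library left out. The replicate block changed no other count of members by over 1.5 times. Thinning and leaving out libraries leave fewer counts or samples, and for the other settings the cause was not tested. The members' summed level in WT Input was 21827 CPM per kb by longest transcripts and 25024 by mean transcript length. Library totals put the median of all genes at 0.12 for KO over WT in IP and at 0.15 for IP over Input in KO, and the members at 0.07 and 0.18. Without KO IP replicate 3 the members' median for IP over Input in KO was -0.05 (0.04 with it). Over all genes, counts called in KO against WT Input were 10 higher and 2 lower and ran from 3 to 23 and from 1 to 54, those in IP, 2 and 4, from 1 to 22 and from 1 to 33, the most without a count filter. IP over Input in WT gave 354 higher (152 to 478) and 572 lower (311 to 690), and in KO 438 (254 to 599) and 645 (385 to 656), the fewest after thinning. The interaction gave 2 higher (0 to 15) and 4 lower (0 to 22).

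Depth limits low members: 3 counts stand for up to 17.05 CPM in the smallest library, so Cpt1b, Eci2 and Ehhadh rest on few reads.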
